A study of Rattus norvegicus with 2 samples.

Results

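Serine synthesis and one-carbon enzymes were followed in IEC6 cells, an epithelial line from rat small intestine, on 2 single-colour arrays. The group holds 9 of the 27235 genes named on the arrays, chosen by gene symbol among the non-control probes: Phgdh, Psat1, Psph, Shmt1, Shmt2, Mthfd1, Mthfd1l, Mthfd2 and Aldh1l2. They were read by 12 of 45598 probes and 23 of 58717 spots. The control culture received water for 60 min, and the treated culture received sodium trisulfide (Na2S3), an inorganic polysulfide, for 60 min. The labels put the dose at 100 µM, except that their treatment protocol says 100 mM, and this conflict is not settled here. That protocol also gives the exposure medium as DMEM with 0.1% serum, where the cells had grown in 10% serum. Each condition had 1 array, so no value below has a replicate check and no p-value across genes is given. "Higher" and "lower" describe these arrays alone.

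Serine is made in the cytosol from a glycolytic intermediate by 3 enzymes in sequence. Phgdh encodes the dehydrogenase that opens the route, Psat1 the aminotransferase and Psph the phosphatase that releases serine. Serine hydroxymethyltransferase then moves a carbon unit from serine onto tetrahydrofolate, which yields glycine. Cells run this folate chemistry both in mitochondria, where it is oxidised to formate, and in the cytosol, where formate is taken up for nucleotide and methyl group synthesis. Shmt2, Mthfd2, Mthfd1l and Aldh1l2 encode mitochondrial enzymes, and Shmt1 and Mthfd1 their cytosolic counterparts. Several of these genes are known to be induced by ATF4, a transcription factor that responds to amino acid shortage and oxidant stress.

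The transcript of Mthfd2 had the largest difference of the group, at 2.92-fold the water signal, and that of Shmt2 followed at 1.56-fold. Psph stood at 1.41-fold. The other measured members lay between 1.10-fold lower (Mthfd1) and 1.15-fold higher (Shmt1), and Aldh1l2 was well above background on neither array. Of the 8 measured members, 1 was at least 2-fold higher and 0 were at least 2-fold lower, where 0.942% of 13062 measured genes were at least 2-fold higher. A difference of 2-fold or more either way held for 1.56% of those genes. At 1.5-fold, 2 members were higher and 0 lower, beside 2.96% of all genes higher and 6.38% different either way. A positive log2 ratio was found for 7 of the 8 members and for 43.4% of all genes. The median log2 ratio was 0.19 over the 8 members and -0.04 over all genes, whose SD was 0.34.

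Signals are given below as multiples of each array's 75th percentile, which was 413 intensity units on the water array and 478 on the Na2S3 array. The log2 ratio is the Na2S3 array over the water array on that scale. The spot error beside it is 1 SD of a log2 ratio estimated from repeat spots of similar brightness, divided by the square root of the number of spots. It covers the reading of spots and not the spread between cultures. The plot of signals on both arrays shows each probe.

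**Figure D1:**
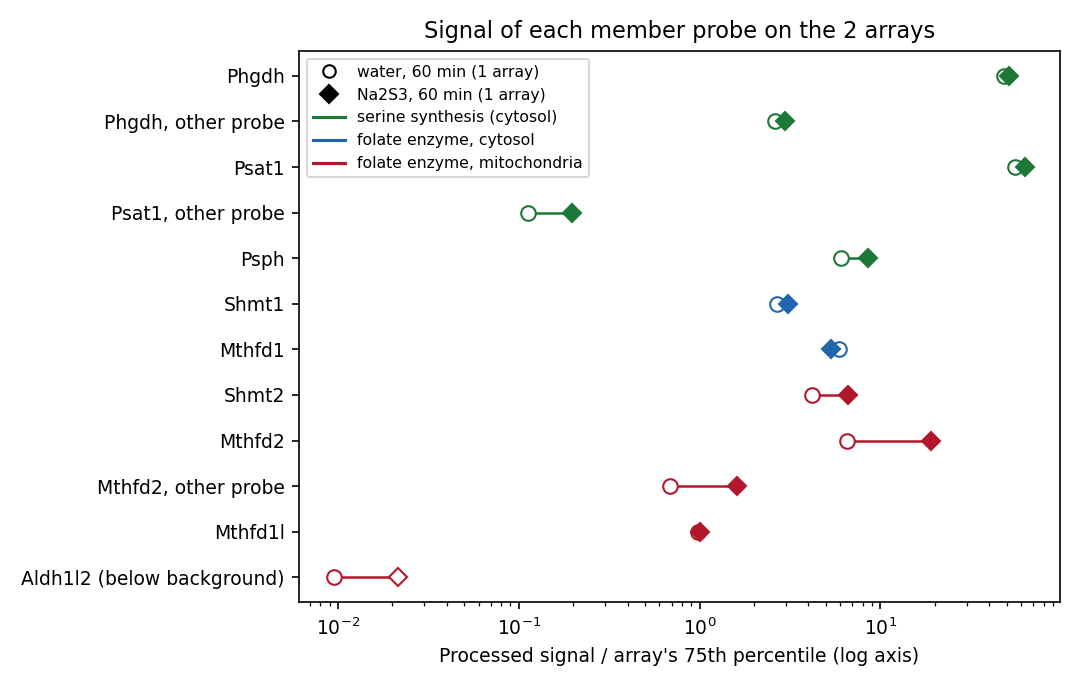
Processed signal of each of the 12 member probes as a multiple of its array's 75th percentile (log axis), with a circle for the water array and a diamond for the Na2S3 array, 1 array each. The diamond lies far to the right of the circle at both Mthfd2 probes (6.52 to 19.0 and 0.689 to 1.61), and the symbols nearly coincide for Mthfd1l; Aldh1l2, with an open diamond, was not well above background.

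Mthfd2 encodes the mitochondrial methylenetetrahydrofolate dehydrogenase and cyclohydrolase. Its brighter probe, at chr4:117517713-117517772 in the rn4 coordinates of the files, was spotted 2 times. The scaled signal was 6.52 on the water array and 19.0 on the Na2S3 array. The single spots ran from 6.38 to 6.66 with water and from 18.7 to 19.4 with Na2S3, so the spots of the arrays did not overlap. The log2 ratio was 1.55 with a spot error of 0.05. A second Mthfd2 probe, at chr4:117523336-117523395 and read by 1 spot, gave 0.689 and 1.61, a log2 ratio of 1.23 with a spot error of 0.10. Both probes thus passed 2-fold in the same direction, and they differed from each other by 0.32. The SD of single probes around the mean of their gene was 0.24 over 3181 genes. A difference between 2 probes varies more than that SD. Mthfd2 ranked 41 from the top among 13062 genes by log2 ratio. Among the 1991 genes with a mean processed signal of 4096 to 16384 intensity units, where Mthfd2 lies, 11 (0.553%) were at least 2-fold higher.

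Shmt2 encodes the mitochondrial serine hydroxymethyltransferase, the step that feeds the carbon unit of serine into the mitochondrial folate pool. Its probe, at chr7:67494744-67494803, was spotted 2 times and gave 4.20 on the water array and 6.58 on the Na2S3 array. The spots ran from 4.18 to 4.23 and from 6.53 to 6.62, again without overlap. The log2 ratio of Shmt2 was 0.65 with a spot error of 0.06, which placed it 310 from the top. Of the 3189 genes with a mean signal of 1024 to 4096, like Shmt2, 57 (1.79%) were at least 1.5-fold higher.

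Mthfd1l encodes the mitochondrial formyltetrahydrofolate ligase, which releases formate at the end of the route. Its probe spans a gap in the genome at chr1:34873903-34880686 and was read by 1 spot. The signals were 0.979 with water and 1.01 with Na2S3. The log2 ratio of 0.04 was smaller than its spot error of 0.10. Aldh1l2 encodes the mitochondrial formyltetrahydrofolate dehydrogenase, which oxidises the formyl group and makes NADPH. The mean brightness of its spot at chr7:22446107-22446166 was 86.1 against a local background of 67 on the water array, and 95.0 against 63 on the Na2S3 array. It carried no flag for being well above background on either array, and no ratio is given for it.

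The cytosolic counterparts differed less from water than Mthfd2 and Shmt2 did. Shmt1, the cytosolic serine hydroxymethyltransferase gene, gave 2.66 with water and 3.06 with Na2S3 at chr10:46936605-46936664. Its log2 ratio was 0.20 with a spot error of 0.09. Mthfd1, which encodes the enzyme that carries out all 3 folate interconversions in the cytosol, was the only measured member with a negative value under the reported and the alternative settings. Its signal at chr6:98910641-98910700 was 5.88 with water and 5.36 with Na2S3, a log2 ratio of -0.13 with a spot error of 0.09.

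The probes for these folate enzymes are 60 bases long. The following show what was read for part of the mitochondrial route, the second Mthfd2 probe included, and for both cytosolic counterparts. The probe of Shmt2 and the brighter probe of Mthfd2 are not printed. Each sequence has at least 1 reading frame without an internal stop and is printed as the files give it.
Mthfd2, mitochondrial, second probe: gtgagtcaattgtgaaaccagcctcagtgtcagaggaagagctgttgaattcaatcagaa
Mthfd1l, mitochondrial: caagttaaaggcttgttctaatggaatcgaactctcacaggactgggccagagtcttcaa
Aldh1l2, mitochondrial, not above background: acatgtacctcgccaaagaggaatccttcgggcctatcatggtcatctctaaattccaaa
Shmt1, cytosolic: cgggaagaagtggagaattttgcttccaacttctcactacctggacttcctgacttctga
Mthfd1, cytosolic: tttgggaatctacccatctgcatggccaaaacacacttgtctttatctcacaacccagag
Their content of G and C was 43.3%, 45.0%, 45.0%, 46.7% and 45.0%, in the order shown. It was 40.0% for the probe of Shmt2 and 45.0% for the brighter probe of Mthfd2.

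Within serine synthesis, the last enzyme had the largest ratio when the brightest probe of each gene was used. Psph, at chr12:27969823-27969882, gave 6.05 on the water array and 8.50 on the Na2S3 array. That is a log2 ratio of 0.49 with a spot error of 0.09, below the 1.5-fold mark at 0.58. Phgdh had 10 spots of its brighter probe at chr2:193147943-193148002. They ran from 42.3 to 51.8 with a median of 48.5 on the water array, and from 47.9 to 55.8 with a median of 51.9 on the Na2S3 array. The ranges overlapped, although the Na2S3 spot was the brighter one at all 10 positions after scaling. The log2 ratio of Phgdh was 0.10 with a spot error of 0.02, and 0.19 at its second probe (chr2:193155488-193166053). Single positions gave 0.03 to 0.18.

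Psat1 was read by 2 probes that disagreed. The bright probe, at chr1:219268481-219268540, gave 55.4 with water and 63.1 with Na2S3, a log2 ratio of 0.19 with a spot error of 0.06. The other, at chr1:219286277-219290212, lay far lower in signal, with 0.113 and 0.197, and had 0.81 with a spot error of 0.19. The difference of 0.62 between the probes had a spot error of 0.20. The SD of 0.24 describes single probes around the mean of their gene, so it is too small a measure for a difference between 2 probes. The bright probe gives the value used for Psat1 here. As the median of both probes Psat1 stood at 0.50, slightly above Psph at 0.49. Neither the bright Psat1 probe nor that median reached 1.5-fold, but the dim probe alone did. The Psph ratio exceeded that of Phgdh by 0.39 (spot error 0.09) and that of Psat1 at its bright probe by 0.31 (0.11), and Psat1 exceeded Phgdh by 0.09 (0.07).

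**Figure D2:**
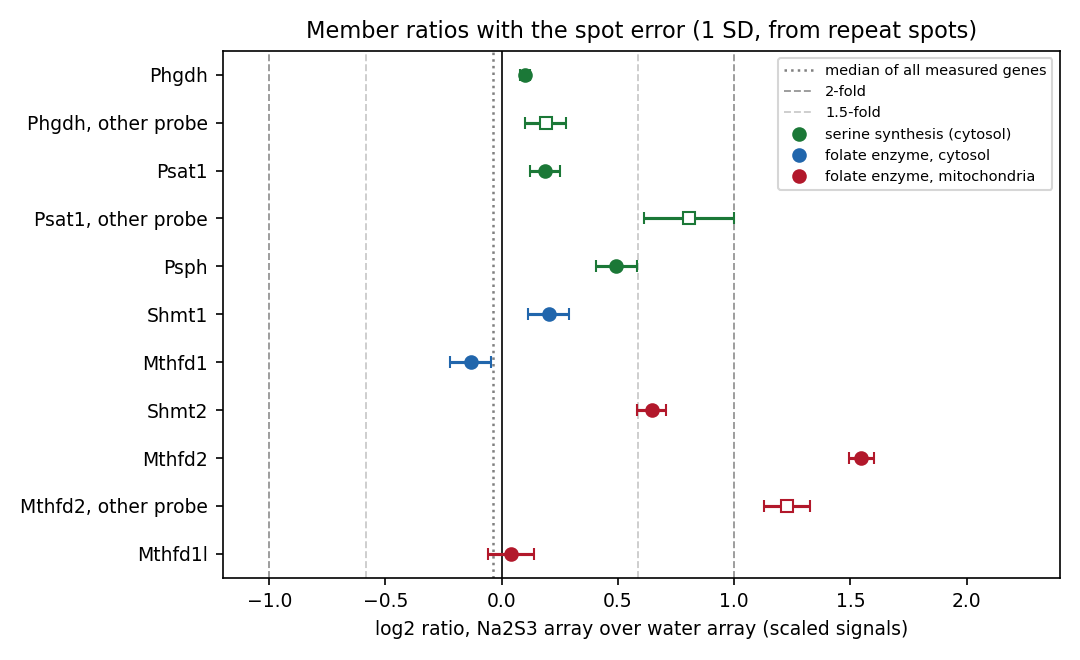
Log2 ratio of the Na2S3 array over the water array for each measured member probe, coloured by role, with bars of 1 SD of spot error; filled circles give the value used for the gene and open squares another probe. Both Mthfd2 probes lie beyond 2-fold, Shmt2 lies at 0.65 just beyond 1.5-fold, and Mthfd1 at -0.13 is the member below 0.

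The contrast between compartments was set by Mthfd2 and Shmt2 and was not shared by Mthfd1l. The 3 measured mitochondrial enzymes had a median log2 ratio of 0.65 and a range of 0.04 to 1.55. The 5 cytosolic enzymes, serine synthesis included, had a median of 0.19 and a range of -0.13 to 0.49. These medians are the values of Shmt2 and of Psat1 at its bright probe. The difference of the medians was 0.46, or 1.37-fold, and it was 0.61 against Shmt1 and Mthfd1 alone. At the probes used, Mthfd2 and Shmt2 each stood above all 5 cytosolic members, and Mthfd1l stood above 1 of 5, so the compartments overlapped. The dim Psat1 probe, at 0.81, lay above Shmt2. Without Mthfd2 the difference was 0.16, a value added after the data were seen.

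Counterparts of the same reaction give the contrast gene by gene. Shmt2 exceeded Shmt1 by 0.44 on the log2 scale (spot error 0.11), a ratio of folds of 1.36. Mthfd2 exceeded Mthfd1, which covers the same dehydrogenase step in the cytosol, by 1.68 (0.10). Mthfd1l exceeded Mthfd1 by 0.17 with a spot error of 0.13. The first and second of these differences were well beyond their spot errors, and the third was close to its own. Within the mitochondrial route, Mthfd2 exceeded Shmt2 by 0.90 (0.08), and Shmt2 exceeded Mthfd1l by 0.61 (0.12). Shmt2 and Psph differed by 0.15 with a spot error of 0.11.

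**Figure D3:**
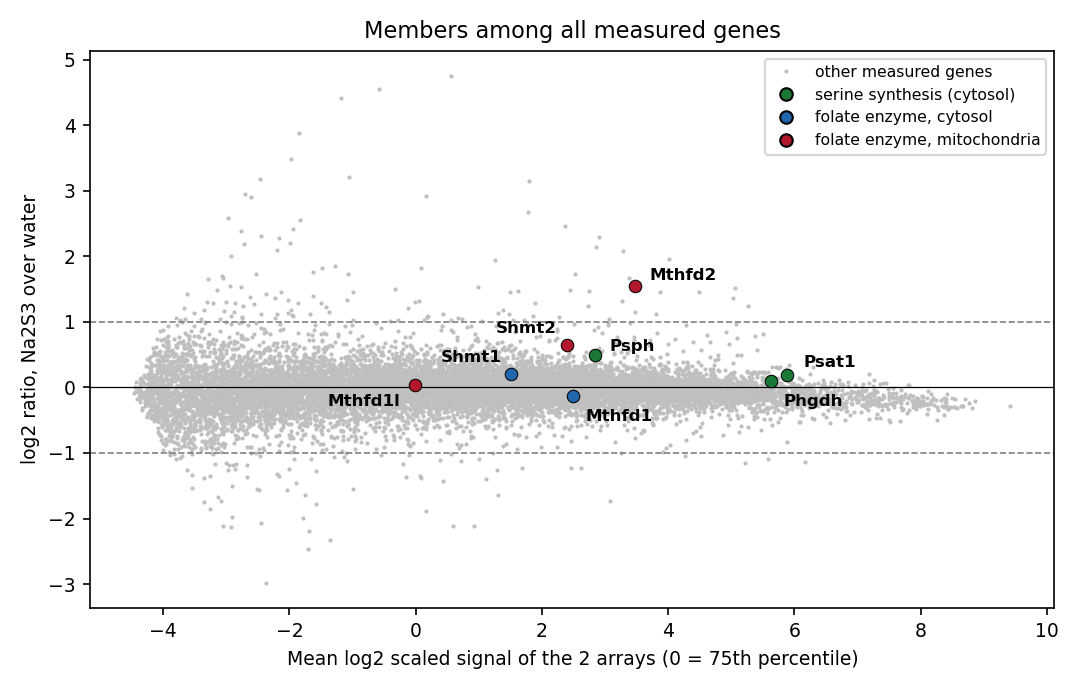
Log2 ratio against the mean log2 scaled signal of the 2 arrays for 13062 measured genes (grey), with the 8 measured members coloured by role and dashed lines at 2-fold. Mthfd2 lies apart from the grey band at 1.55, Shmt2 and Psph lie at its upper edge, and Mthfd1, Mthfd1l and Shmt1 lie inside it.

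Upstream sequence was set beside these ratios for the 7 members that have an entry in the RefSeq promoter table of the GRCr8 build. The 250 bases before the start of Mthfd2 and Shmt2, the members past 1.5-fold, are printed with those of Shmt1, which differed little. Capitals mark matches, on either strand, to TGATGNAA (a C/EBP-ATF element), TGACNNNGC (an antioxidant element) or CACGTG (an E box, the site class of MYC). No printed match overlaps another.
Mthfd2 (minus strand, chr4:117380351-117380600): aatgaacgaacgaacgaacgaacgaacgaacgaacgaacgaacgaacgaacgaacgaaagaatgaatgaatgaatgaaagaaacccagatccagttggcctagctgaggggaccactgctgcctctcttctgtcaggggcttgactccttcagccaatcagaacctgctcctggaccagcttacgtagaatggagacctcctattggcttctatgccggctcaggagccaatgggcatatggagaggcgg
Shmt2 (minus strand, chr7:65249568-65249817): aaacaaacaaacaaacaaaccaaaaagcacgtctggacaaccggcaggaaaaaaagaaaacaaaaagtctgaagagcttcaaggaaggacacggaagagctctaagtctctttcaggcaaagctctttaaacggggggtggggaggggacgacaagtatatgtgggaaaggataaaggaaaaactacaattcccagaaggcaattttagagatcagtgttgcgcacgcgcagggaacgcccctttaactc
Shmt1 (minus strand, chr10:45990342-45990591): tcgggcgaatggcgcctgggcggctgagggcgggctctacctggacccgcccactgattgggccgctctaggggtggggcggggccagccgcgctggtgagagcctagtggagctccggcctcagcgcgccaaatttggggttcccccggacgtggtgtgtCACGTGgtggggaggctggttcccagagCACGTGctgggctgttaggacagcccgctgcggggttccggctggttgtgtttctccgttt
Shmt1 had 2 E box matches, starting 89 and 61 bases before the start, and the other 6 windows had 0 matches to any of the 3 motifs. Over all 33469 promoter windows of this length, 3.40% held the C/EBP-ATF element, 10.1% the antioxidant element and 5.59% the E box. A match is a string of letters in this window, and its absence describes only these 250 bases. Where a gene had several windows listed, the first was used, and other starts were not searched.

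The further genes of the folate cycle stayed close to water on these arrays, with 1 exception. Of 15 folate cycle enzymes and transporters, 11 were measured, with a median log2 ratio of -0.11. At 1.5-fold, 1 was higher and 0 were lower, beside 6.38% of all genes either way. Mthfd2l, the second mitochondrial dehydrogenase gene, was that one: 0.0812 on the water array and 0.183 on the Na2S3 array, a log2 ratio of 1.17 from 1 dim spot with an error of 0.35. Normexp background correction put Mthfd2l at 0.43. Ggh, which trims folate polyglutamates, had -0.31, Slc25a32, the mitochondrial folate carrier gene, -0.25 (0.06 at its other probe), and Folr2, a folate receptor gene, -0.20. Aldh1l1, the cytosolic counterpart of Aldh1l2, was well above background on neither array. Glycine cleavage and mitochondrial serine import genes had 6 of 7 measured and a median of -0.10. None passed 1.5-fold, which for a list this short is near the 6.38% of all genes. Among them Sfxn2 had -0.34, Sfxn1, a mitochondrial serine transporter gene, -0.24, Gcsh -0.13 and Sfxn3 0.07.

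Genes that take up or use serine also held a single large ratio. Of 12, 9 were measured, and the median was 0.09. At 1.5-fold, 1 was higher and 0 lower, beside 6.38% of all genes either way. Slc1a4, a neutral amino acid transporter gene that carries serine, gave 0.0954 with water and 0.316 with Na2S3, a log2 ratio of 1.73 with a spot error of 0.19. With normexp it stood at 0.87. Slc6a9, a glycine transporter gene, had 0.38 at one probe and 0.01 at another, Slc38a2 had 0.36, and Srr, the serine racemase gene, 0.19. Slc1a4 was thus higher on the Na2S3 array together with Mthfd2 and Shmt2, while the 8 other measured genes of the list lay within 1.5-fold.

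Stress and growth regulators, ATF4 among them, were set beside the members. This list was chosen with earlier results of these data known. All 6 were measured, with a median of 1.95. At 1.5-fold, 5 were higher and 0 lower, beside 2.96% of all genes higher. Atf4 itself gave 34.3 with water and 60.5 with Na2S3, a log2 ratio of 0.82 with a spot error of 0.02. Ddit3, which encodes the stress factor CHOP, stood at 1.45, and Nfe2l2, the NRF2 gene, at 0.42. Atf3, Trib3 and Myc, at 4.75, 4.54 and 2.46, led that list. Atf3 and Trib3 were dim with water, at 0.284 and 0.139, and ran down to 4.15 and 3.54 under other settings. The 7 metabolic genes listed as induced by ATF4 had a median of 0.31. At 1.5-fold, 2 were higher (Asns and Chac1) and 1 was lower (Got1), beside 6.38% of all genes either way. Asns, the asparagine synthetase gene, had 5.79 and 10.3, a log2 ratio of 0.83, between those of Shmt2 and Mthfd2. Chac1, which degrades glutathione and is no biosynthesis enzyme, had 2.93, Gpt2 0.33 and Got1 -1.40. The member enzymes and these genes share both arrays, and their values are given side by side without a test of likeness.

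**Figure D4:**
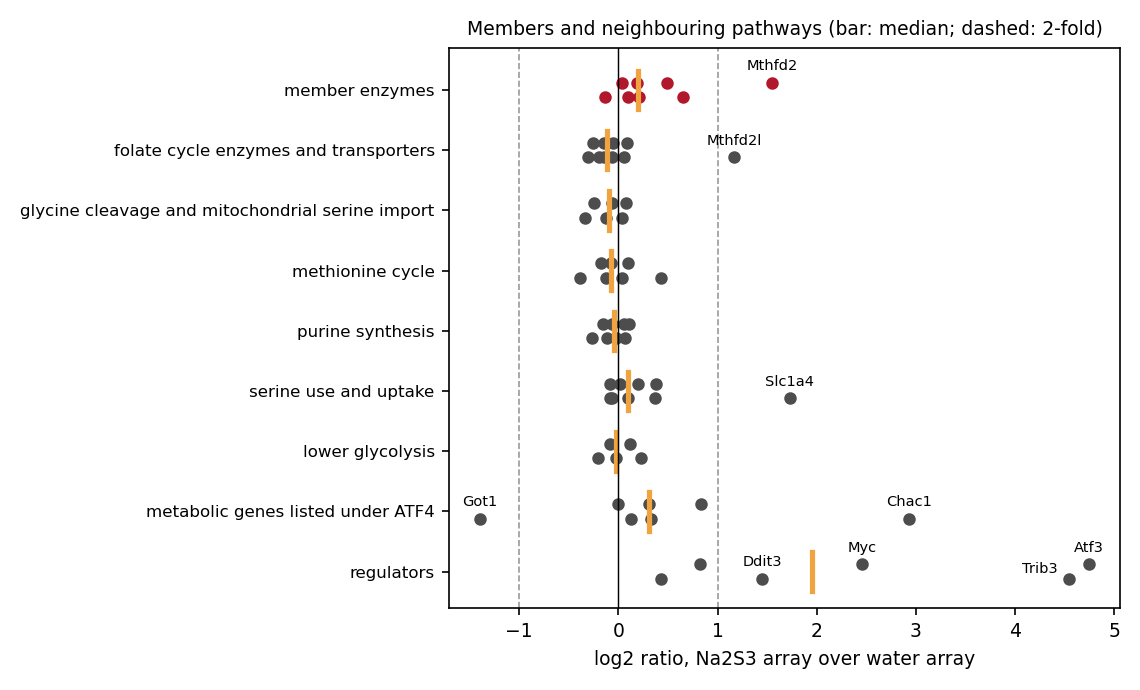
Log2 ratio of each measured gene of the member group (red) and of 8 neighbouring lists (grey), with the list median as an orange bar, a dashed line at 2-fold either way and names for genes past it. Mthfd2, Mthfd2l and Slc1a4 stand apart from lists whose medians lie at 0.19, -0.11 and 0.09.

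Processing choices moved the members little apart from Psat1, as the plot of settings shows. Under the 10 alternatives Mthfd2 ran from 1.39 to 1.61, Shmt2 from 0.65 to 0.68, Psph from 0.49 to 0.54 and Mthfd1l from 0.02 to 0.07. Phgdh ran from 0.10 to 0.22, Shmt1 from 0.20 to 0.23 and Mthfd1 from -0.13 to -0.09. Psat1 had the widest range of the measured members, 0.14 to 0.50, with the highest value as the median over its probes. Mthfd2 and Shmt2 were the first and second of the measured members under each of these settings.

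**Figure D5:**
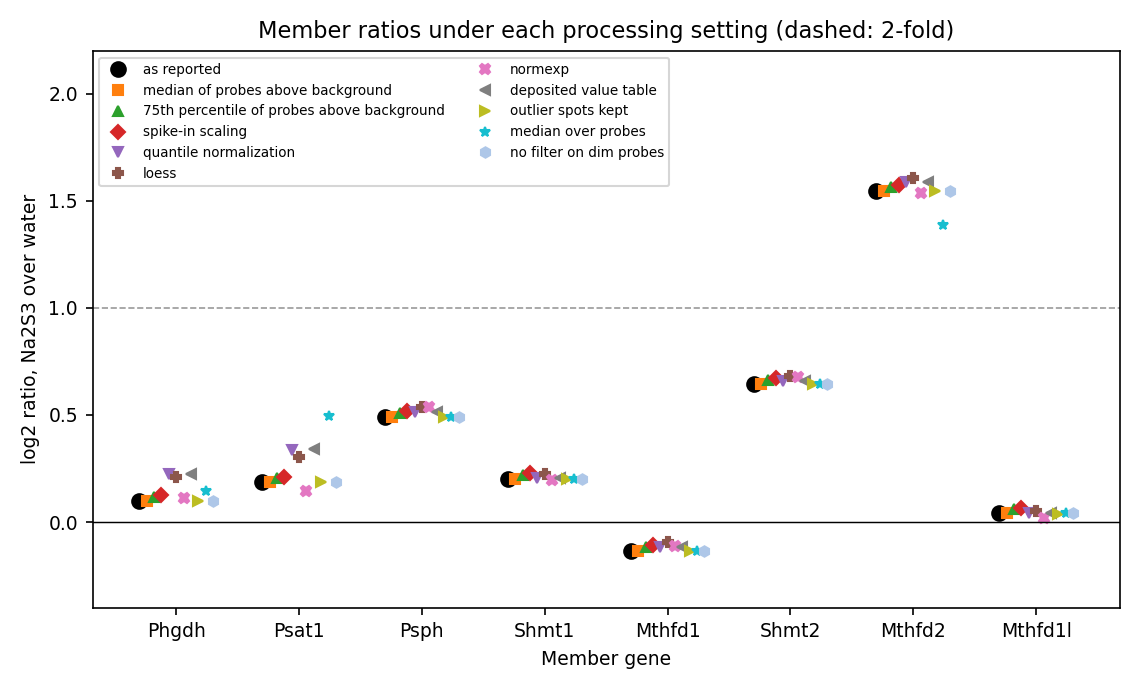
Log2 ratio of each measured member under the reported setting (black) and 10 alternatives (coloured symbols), with a dashed line at 2-fold. Mthfd2 stays between 1.39 and 1.61, above the line at 2-fold, and Psat1 shows the largest spread of the measured members, 0.14 to 0.50.

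Markers of cell type were read on the same arrays. Of 10 epithelial markers, 6 were well above background on both arrays, with a summed scaled signal of 80.9 with water and 78.6 with Na2S3. Krt8 and Cdh1 gave most of that sum, at 38.4 and 35.6 with water, and Krt18 and Krt19 were dim, at 0.344 and 0.520. Cdx1 was also measured, at 5.05 with water and 4.29 with Na2S3, as was Cldn3, at 1.04 and 1.075. On neither array did Epcam, Vil1, Cdx2 or Cldn7 pass as well above background. Some of these probes thus bear the labelled intestinal identity and others do not, and that identity was not tested. Of 8 fibroblast markers, 6 were measured, and their summed signal was 525 with water and 483 with Na2S3. Most of it came from Col1a1, Col1a2, Col3a1 and Dcn, at 173, 81.7, 222 and 47.3 with water. Thy1 and Acta2 were dim, at 0.311 and 0.159. Pdgfra and Pdgfrb were not well above background. Of 6 immune and endothelial markers, 4 were measured, with sums of 6.40 and 5.05. Most of these sums came from Vwf, at 6.01 with water and 4.72 with Na2S3. Ptprc, Cd68 and Cdh5 were dim, at 0.0707, 0.214 and 0.103 with water. Cd3e and Pecam1 were not well above background. The part of these differences in the member ratios was not tested. The labels name IEC6 cells alone, and whether other cell types were present was not tested. In such bulk RNA, fewer cells of a type and less RNA per cell cannot be told apart.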

How the data were processed

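Total RNA from 1 IEC6 culture per group was amplified and read as Cy3-labelled cRNA on 1-colour Agilent arrays, per the labels' protocols. The deposited files hold linear intensity values from Agilent Feature Extraction 10.7.1.1, which had subtracted background and removed spatial trends, per the file headers; the submitters' processing notes name 9.5.1.1. The deposited value table also holds intensity, with normalization not given in the sources used here.

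Outlier spots were left out (448 on the water array and 390 on the Na2S3 array, 0 on member probes), and 0 spots were saturated. Spots of a probe were averaged on the log2 scale. The 75th percentile of the non-control probes was subtracted per array, which took out a shift of 0.21. A probe was well above background when more than 50% of its spots carried that flag. Where several probes of a gene passed on both arrays, the brightest gave its value. Other genes took RefSeq symbols (GRCr8) or the file's name, for 21109 and 14743 probes, and 9746 probes were unnamed. Exon and UTR positions were not analysed here.

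The number of arrays limits the precision, and no test was possible at 1 array per group. Genes were counted at log2 ratios of 1 or of 0.58 either way. All members are named, and of each list up to 4 genes with the largest ratio either way; other genes named were chosen after their values were seen. The members and lists were chosen with earlier results of these data known. A value counted as moved under an alternative when it changed by more than the 0.24 SD between probes of a gene. The calculation was tested on simulated data. Python 3.11.15, numpy 2.4.6, pandas 2.3.3, R 4.3.3 and limma 3.58.1 (normexp with an offset of 50, quantile and loess normalization) were used.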

Additional observations from a re-analysis of the deposited data

How the results depend on the processing

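The alternatives were scaling to the median or the 75th percentile of probes above background or to 7 spike-in probes, quantile and loess normalization, normexp, the deposited value table, outlier spots kept, the median over probes, and no filter on dim probes. No member changed sign under any of these. The count of members at least 2-fold different was 1, and 2 with no filter on dim probes, since Aldh1l2, not above background, then has a log2 ratio of 1.17. With no filter the mitochondrial minus cytosolic median was 0.72, and without Mthfd2, an alternative chosen after the data were seen, 0.16. Under the other settings listed it ran from 0.44 to 0.53, beside 0.46 as reported, and it was 0.61 against Shmt1 and Mthfd1 alone and 0.57 as a difference of compartment means. Over all genes, 204 were at least 2-fold different, 92 with normexp and 2607 with no filter. No paired analysis was possible because each group has 1 array. Low signal over background limits Aldh1l2, Mthfd2l, Slc1a4 and the dim probe of Psat1. Single spots below 64 intensity units, like that of Mthfd2l, had an error of 0.35, against 0.06 above 16384. At 64 to 128 units, where Slc1a4 and the dim Psat1 probe lie by the mean of both arrays, the error was 0.19. On the water array alone the dim Psat1 probe read 46.6 units, below 64, and Slc1a4 was dimmer still.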

Other observations

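Pathways that receive one-carbon units, and the part of glycolysis where serine synthesis branches off, were read as 3 lists. They held 0 measured genes past 1.5-fold, where 6.38% of all genes passed it either way, so for lists this short 0 is near the share of all genes. The 8 purine synthesis genes, whose route takes up formyl groups from folate, had a median log2 ratio of -0.05 and ran from -0.27 (Gart) to 0.11 (Ppat), with Paics at -0.16 and Prps2 at -0.11. Of 8 methionine cycle genes, 7 were measured, with a median of -0.07. Mtr, the methionine synthase gene that joins this cycle to folate, had 0.43 with a spot error of 0.19, and Bhmt, the betaine-dependent methyltransferase gene, had -0.39 with 0.16. Ahcyl1 stood at -0.18, with probes from -0.28 to 0.27, and Ahcy at -0.13. The 5 lower glycolysis genes, which act before or after the branch to serine, had a median of -0.02. That median turned positive with spike-in scaling, loess, quantile normalization and the deposited table. Pkm had 0.22, with probes from -0.40 to 0.25, Pgk1 -0.20, Gapdh 0.11 and Pgam1 -0.08. The purine median was 0.02 with normexp and 0.01 as the median over probes.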
